A study of Mus musculus with 12 samples.

Results

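The 9 chemokine receptor genes Ccr1, Ccr2, Ccr3, Ccrl2, Cxcr2, Cxcr4, Cx3cr1, Ackr3 and Ccr7 were followed across macrophages sorted from mouse bone marrow. They were chosen by symbol from the 18467 genes of the deposited count table, all 9 were present, and 8 passed the low-count filter and were tested. The libraries were made from total RNA of female Albino B6 mice, with 3 libraries from different mice in each of 4 groups. Mice with bone metastases had received E0771, a mouse breast cancer cell line, through the caudal artery at 8 weeks of age, and the normal groups came from healthy mice whose age is not given in the labels. After red cell lysis of femur and tibia marrow, live single cells carrying both CD11b and F4/80 were collected as general macrophages. Cells that carried VCAM1, CD163 and CCR3 together were collected as niche macrophages, although the sample titles call this sort general macrophages too. The time between injection and sorting is not given. All groups are sorted fractions, so a transcript level averages over every cell type in the gate, and fewer cells of a type and less RNA per cell cannot be told apart.

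Chemokine receptors are membrane receptors with 7 transmembrane segments that couple to inhibitory G proteins and steer cells along gradients of chemokines. In marrow, Cxcr4 and its ligand Cxcl12 retain leukocytes and progenitors, Cxcr2 drives neutrophil release, and Ccr2 drives the exit of classical monocytes. Ccr3 is the eotaxin receptor of eosinophils and basophils, and here its protein was 1 of the antigens of the niche sort. Ccrl2 and Ackr3 are atypical members that bind their ligands without the usual G protein signal.

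Of the 9 genes, 5 lie on chromosome 9, 3 on chromosome 1 and 1, Ccr7, on chromosome 11 in GENCODE release M21 (GRCm38, the assembly that mm10 also names). Ccr1 (123962124 to 123968692, minus strand), Ccr3 (124021972 to 124031689, plus strand) and Ccr2 (124101950 to 124113557, plus strand) are protein-coding genes of 1 receptor cluster. Cxcr2 lies on chromosome 1 (74153989 to 74161246, plus strand). Of the other members, Ccrl2 (111054486 to 111057519) and Cx3cr1 (119901616 to 120069879) lie on the minus strand of chromosome 9, Ackr3 (90203980 to 90216751, plus strand) and Cxcr4 (128588199 to 128592293, minus strand) on chromosome 1, and Ccr7 at 99144196 to 99155077 (minus strand). The 250 bases before the start site are shown for Ccr3, which was higher in niche macrophages, and Cxcr2, which was lower there in the comparison within metastatic marrow by a call lost in 13 of 19 alternatives, as members with opposite directions. The window of Ccr2, the other receptor called, is not shown because most of it lies within the first exon of another annotated Ccr2 transcript. The sequences are from RefSeq (GRCm38.p6), which holds promoter windows for 8 of the 9 genes. Capitals mark matches, on either strand, to the PU.1 motif GAGGAA, the C/EBP motif TTGCNNAA and the GATA motif AGATAA.
Ccr3 (chr9:124021721-124021970, plus strand): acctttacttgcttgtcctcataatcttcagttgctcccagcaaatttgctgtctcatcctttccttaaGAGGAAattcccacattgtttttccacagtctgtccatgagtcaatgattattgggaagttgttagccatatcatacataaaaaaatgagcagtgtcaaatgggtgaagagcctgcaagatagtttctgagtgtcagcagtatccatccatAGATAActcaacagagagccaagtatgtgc
Cxcr2 (chr1:74153744-74153993, plus strand): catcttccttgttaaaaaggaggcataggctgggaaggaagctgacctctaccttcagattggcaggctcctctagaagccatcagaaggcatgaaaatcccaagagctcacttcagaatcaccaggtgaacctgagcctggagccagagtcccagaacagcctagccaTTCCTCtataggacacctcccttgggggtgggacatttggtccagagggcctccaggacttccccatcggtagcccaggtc
The Ccr3 window held 1 PU.1 match at position -181 from the start site and 1 GATA match at -30. In the Ccr2 window 1 GATA match was found at -97, and in the Cxcr2 window 2 PU.1 matches at -81 and at 7 after the start site, the second outside the stretch shown. No matches overlapped. Of 32851 promoter windows of 300 bases, 28.3% held the PU.1 motif, 11.2% the GATA motif and 10.8% the C/EBP motif, so such matches are common and describe the sequence only.

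Library totals were between 13687957 and 30332442 counts, and 3 counts, the floor used here, corresponded to between 0.1095 and 0.2435 CPM (counts per 1000000 counts of the library) after trimmed mean of M values (TMM) scaling. All 7 macrophage markers were detected in every group. In niche macrophages 6 of the 7 had a positive log2 fold change in either marrow state (3 called higher and 1 lower in normal, 1 and 1 in metastatic marrow), with medians of 1.96 and 1.43. Their sum, 10949 to 21723 CPM in general against 5077 to 9701 CPM in niche libraries, went the other way because it was mostly Lyz2, the lysozyme gene that other myeloid cells also express, with means of 19837 CPM in the general and 7358 CPM in the niche sort of normal marrow. All 14 markers of erythroblastic island macrophages were detected, at 394 to 643 CPM in general against 4075 to 11935 CPM in niche libraries. They include Vcam1 and Cd163, antigens of the niche sort, so a part of this contrast is fixed by the gate. All 12 neutrophil markers were also present, at 15288 to 24734 CPM in general against 10734 to 12854 CPM in niche libraries, and so were all 11 monocyte markers, at 11139 to 18722 and 4547 to 10888 CPM. Markers of other myeloid cells were thus present in both sorts, and their part in the receptor levels was not tested. Summed markers of the erythroid and B cell lineages were higher in niche libraries, where erythroid markers came to 714 to 1809 CPM (28.5 to 138.5 CPM in general; 4 called higher in normal and 3 in metastatic marrow) and B and plasma cell markers to 1096 to 3925 CPM (97.2 to 265 CPM in general; 4 called higher in each). Dendritic cell markers summed to 52.75 to 113.6 CPM in general against 67.9 to 298 CPM in niche libraries, and stem and progenitor cell markers to 59.3 to 124.5 against 174.5 to 257.5 CPM.

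**Figure D1:**
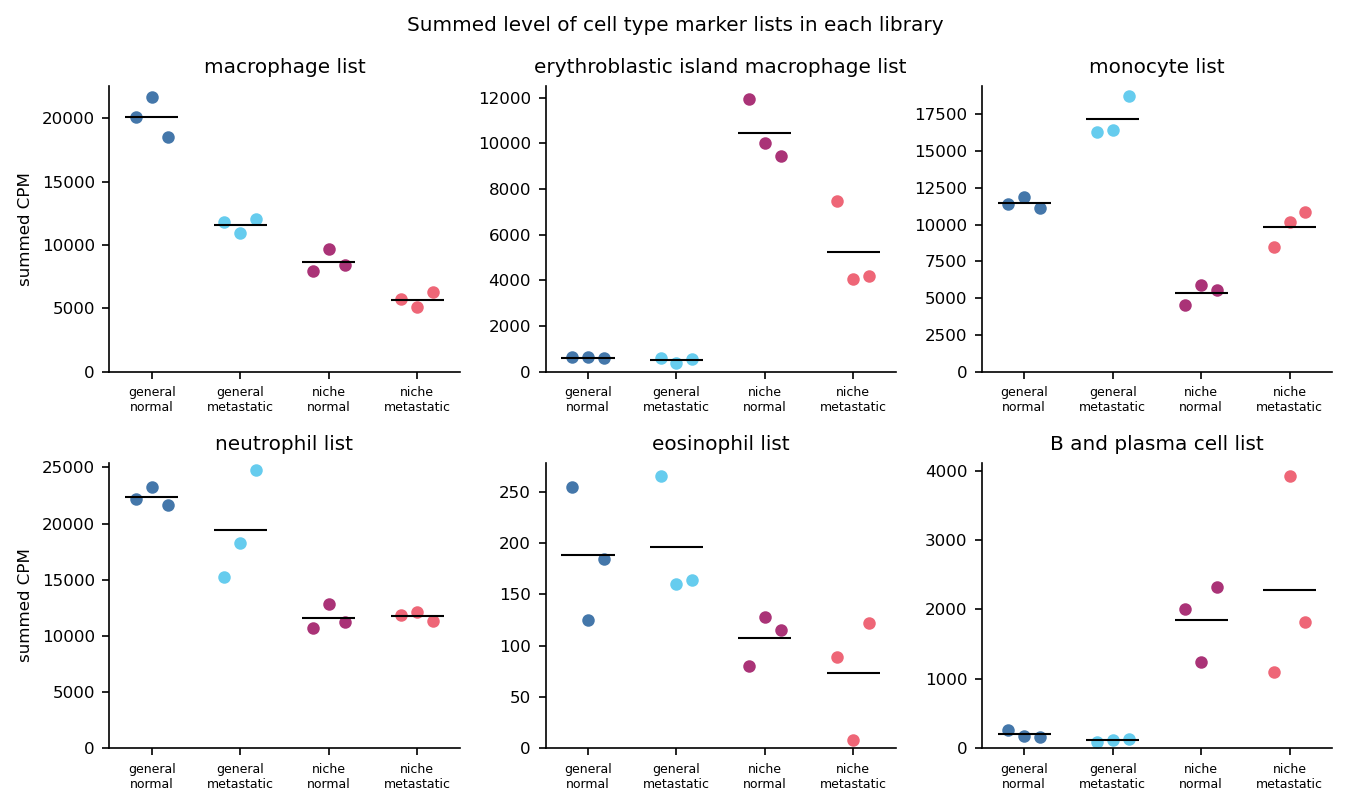
Summed CPM of 6 marker lists (vertical axes, starting at 0) in each of the 12 libraries, by group; points are libraries and lines are group means. The island macrophage list holds Vcam1 and Cd163, used for the niche sort, the macrophage sum is mostly Lyz2 and the monocyte sum mostly Chil3. Island macrophage markers were at 4075 CPM or more in every niche library and at 643 CPM or less in every general library, and neutrophil markers were at 10734 CPM or more in every library.

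Between populations, Ccr2 was lower in niche macrophages of both marrow states, and Cxcr2 was lower in those of metastatic marrow, a call kept in 6 of 19 alternatives. Ccr3 was higher in both marrow states, which checks the sort on CCR3 protein and is no finding. No other receptor was called higher by edgeR. Of the 8 tested receptors, 7 had a negative log2 fold change in normal and 5 in metastatic marrow, whether or not they passed. In normal marrow 1 of the 8 tested receptors was higher (Ccr3; 1.50% of all 12882 tested genes were called higher) and 1 was lower (Ccr2; 0.970% of all genes were called lower) at an adjusted p-value under 0.05 by edgeR's quasi-likelihood test. DESeq2 called 4 in normal marrow (Ccrl2 and Cxcr2 besides these), against 17.5% of all genes it tested. In metastatic marrow 1 was higher by edgeR (Ccr3; 0.574% of all genes) and 2 were lower (Ccr2 and Cxcr2; 0.256% of all genes). Niche and general libraries had no overlap for 4 receptors in normal marrow, against 18.9% of all genes, and for 5 in metastatic marrow, against 17.2%, with Ccr3, fixed by the sort, among them in both. The median log2 fold change of the 8 receptors was -0.97 in normal and -0.83 in metastatic marrow, beside 0.19 and 0.04 over all genes. With library size as the only scaling, 96 genes were called higher and 20 lower in metastatic marrow, against 74 and 33 with TMM.

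With metastasis, no receptor passed edgeR's test in either population. In general macrophages 0 of 8 were called, against 0.0155% of all genes, and 2 had an unadjusted p-value under 0.05 (Cxcr2 and Cx3cr1), against 5.12% of all genes. DESeq2 called those 2, against 1.55% of all genes it tested. In niche macrophages edgeR called 0 of 8, against 0.00776% of all genes, and 4 had an unadjusted p-value under 0.05 (Ccr2, Ccr3, Ccrl2 and Cxcr2), against 12.7% of all genes. DESeq2 called 3 of these (Ccr3, Ccrl2 and Cxcr2), against 10.6% of all genes it tested. Libraries of the 2 marrow states did not overlap for 3 receptors in general macrophages, against 13% of all genes, and for 5 in niche macrophages, against 12.8%. The metastasis effect was called different between populations for 0 of 8 receptors by edgeR, which called 0% of all genes. For 3 receptors the unadjusted p-value was under 0.05, against 7.89% of all genes, and DESeq2 called 2 (Ccr3 and Ccrl2; 4.60% of all genes it tested). The 4 comparisons share groups, so their values are given side by side and not counted as separate evidence.

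**Figure D2:**
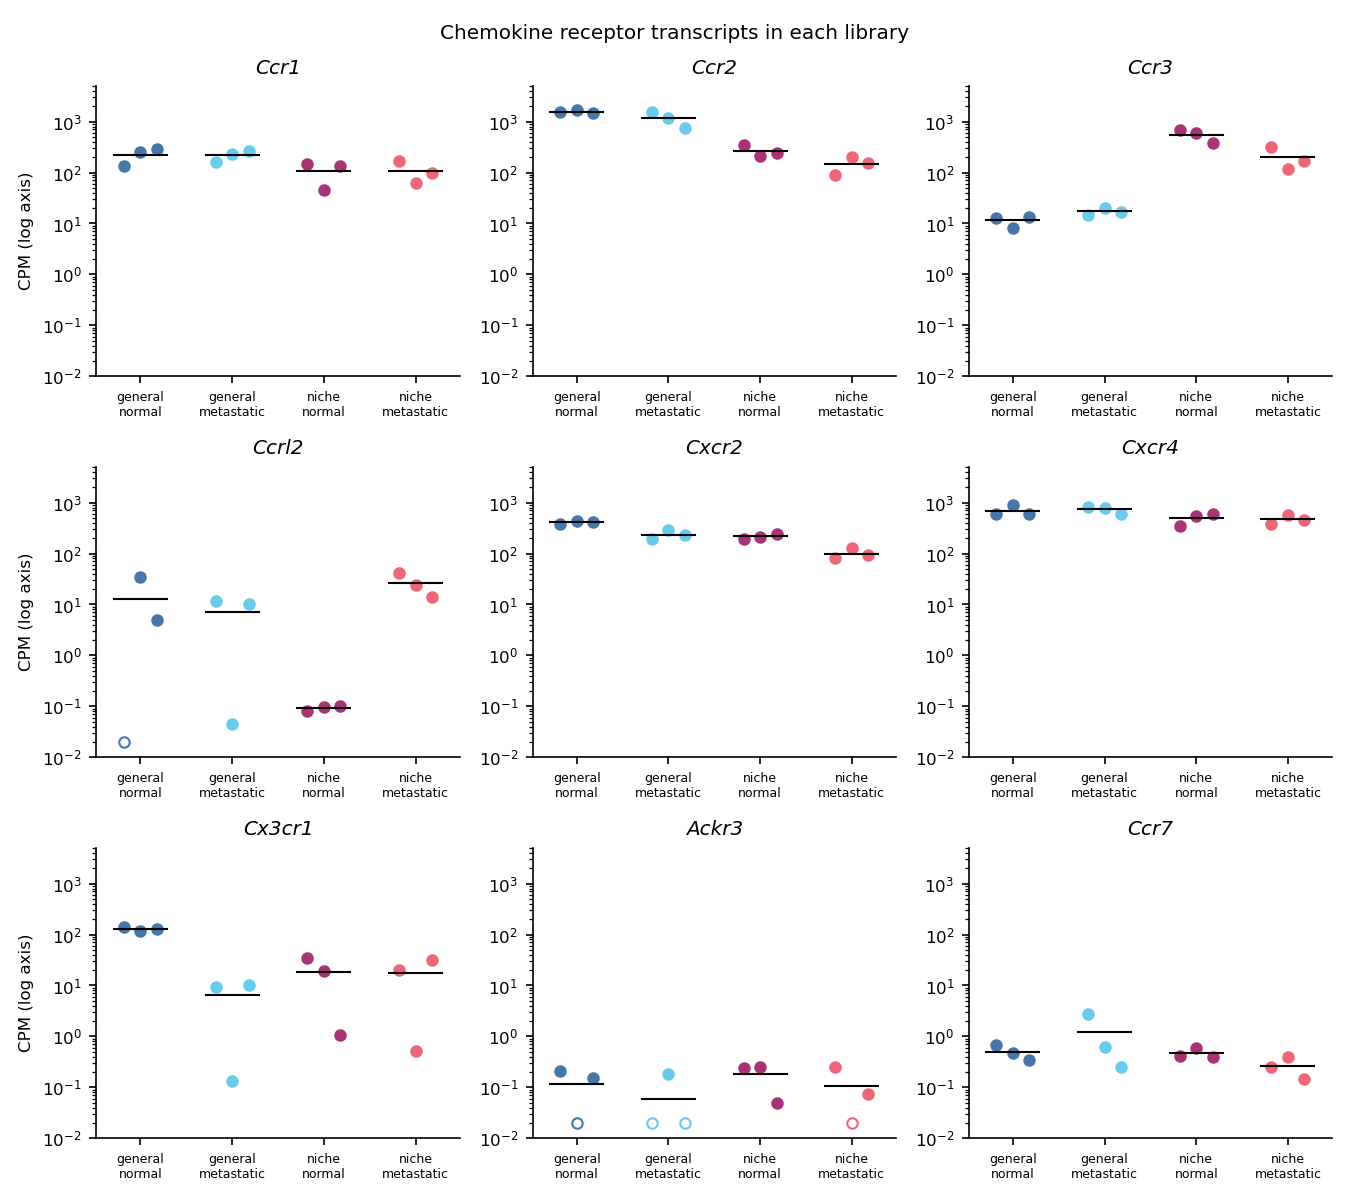
CPM of the 9 receptors (log axes) in each of the 12 libraries; filled points are libraries, open points are libraries at 0 counts drawn at the foot of the panel, and lines are means of 3 libraries. Ccr3 was at 118 CPM or more in every niche library and at 19.8 CPM or less in every general library, and Ccr2 had the opposite order.

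Ccr3 was high in the niche libraries, whose cells had been sorted on its protein. In general macrophages it was at 12.6, 8.25 and 13.5 CPM in normal marrow and at 15.0, 19.8 and 17.1 CPM in metastatic marrow. In niche macrophages it was at 675, 601 and 378 CPM in normal marrow (libraries A to C) and at 316, 118 and 168 CPM in metastatic marrow. Every niche library was above every general library, and all niche libraries from metastatic marrow were below all those from normal marrow. Because CCR3 protein was used to sort the niche cells, the difference between populations checks the sort and is no finding. It amounted to log2 fold changes of 5.59 ± 0.44 in normal and 3.54 ± 0.40 in metastatic marrow (SE; edgeR adjusted p = 3.48e-07 and 3.70e-05).

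Within the niche sort, where both groups had been gated on CCR3, the mean of Ccr3 was 551 ± 154 CPM in normal and 201 ± 103 CPM in metastatic marrow (SD, n = 3 each). The log2 fold change was -1.46 ± 0.37 (SE; 95% interval -2.23 to -0.69), which did not pass when adjusted over the whole table (edgeR adjusted p = 0.208). Macrophage markers were lower beside it in the metastatic niche libraries. Island macrophage markers summed to 9456 to 11935 CPM in normal and 4075 to 7476 CPM in metastatic marrow, 1 of 14 had a positive log2 fold change (median -0.94), and so did 0 of the 7 macrophage markers (median -1.13), none being called. Their part in the level of Ccr3 was not tested. For Ccr3 DESeq2 gave an adjusted p-value of 0.00629, and over all alternatives of this comparison the adjusted p-value ran from 0.00629 to 0.536. In general macrophages Ccr3 averaged 11.5 ± 2.83 CPM in normal and 17.3 ± 2.45 CPM in metastatic marrow (SD, n = 3 each), with a log2 difference of 0.59 ± 0.37 (SE; edgeR adjusted p = 1), and the libraries of the 2 marrow states did not overlap. The difference between the 2 metastasis effects was -2.05 ± 0.52 on the log2 scale (SE; edgeR adjusted p = 0.452, DESeq2 adjusted p = 0.0193; 0.0193 to 0.810 over the alternatives).

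Eosinophils and basophils also carry CCR3. The 9 eosinophil markers summed to 125 to 265.5 CPM in general against 7.87 to 128 CPM in niche libraries, and none of the 8 tested was called in any comparison. Prg2, which encodes eosinophil major basic protein, was at 68.5 to 97.8 CPM in the general sort against 0.162 to 17.7 CPM in the niche sort of normal marrow. Epx, the eosinophil peroxidase gene, was at 24.5 to 82.8 and 55.8 to 81.7 CPM there, and at 0.0437 to 17.04 CPM in niche macrophages from metastatic marrow. The list was mixed in the niche sort with metastasis, where 5 of the 8 tested had a positive log2 fold change (median 2.05), Prg2 among them at 7.47 to 29.3 CPM in metastatic marrow. Siglecf and Ear1 varied within groups, from 0.0593 to 33.0 and 1.96 to 13.9 CPM in the general and from 0.149 to 24.2 and 0.0811 to 43.0 CPM in the niche sort of normal marrow. Prg3 was at 0 in all niche libraries from normal marrow, and Alox15 was at 0 in all libraries of both sorts from normal marrow. Basophil and mast cell markers summed to 258 to 386 CPM in the general sort against 324 to 491 CPM in the niche sort of normal marrow, and to 114 to 166 and 141 to 159 CPM in metastatic marrow, so this sum, of which Hdc was the largest part in general macrophages (216 CPM in normal marrow), was lower with metastasis in both sorts. Between the sorts, 5 of its 7 markers had a positive log2 fold change in niche macrophages of either marrow state (medians 1.01 and 0.90), among them Ms4a2, a subunit of the IgE receptor, at 5.70 to 35.4 CPM in the general and 43.9 to 118 CPM in the niche sort of normal marrow. None of the 7 was called in any comparison, and its part in the level of Ccr3 was not tested. Over the 12 libraries the genes whose log2 CPM followed Ccr3 most closely, among 8144 genes averaging 10 CPM or more, were Hmox1 (Pearson r = 0.99), which encodes the haem-degrading enzyme haem oxygenase-1, Vcam1 (r = 0.99), another sorting antigen, and Ctsb (r = 0.97), which encodes cathepsin B. These correlations span 2 sorts chosen for different antigens and are descriptions only.

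Ccr2, the receptor for Ccl2 that marks classical monocytes, was lower in niche macrophages in both marrow states. It was at 1528, 1715 and 1474 CPM in general macrophages from normal marrow and at 1579, 1172 and 747 CPM in those from metastatic marrow. In niche macrophages it was at 341, 214 and 237 CPM in normal and 87.9, 198.5 and 154 CPM in metastatic marrow. No niche library reached the level of any general library. The log2 fold change between populations was -2.57 ± 0.32 in normal (SE; 5.96-fold lower; edgeR adjusted p = 7.76e-05) and -2.99 ± 0.32 in metastatic marrow (SE; 7.94-fold lower; edgeR adjusted p = 2.14e-05). Limma-voom with sample quality weights gave log2 fold changes of -2.66 and -3.0 but did not call them (adjusted p = 0.0987 and 0.0624). With metastasis the log2 difference of Ccr2 was -0.43 ± 0.30 in general (SE; 95% interval -1.06 to 0.19) and -0.85 ± 0.30 in niche macrophages (SE; 95% interval -1.47 to -0.22), and neither passed (edgeR adjusted p = 1 and 0.381).

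Between populations, other monocyte transcripts were lower beside Ccr2. Of the 11 monocyte markers, 5 were called lower and 0 higher in niche macrophages from normal marrow, and 3 lower and 0 higher in metastatic marrow, with median log2 fold changes of -1.0 and -0.82. Ly6c2, a surface antigen of classical monocytes, was at 1697 to 1807 CPM in the general sort against 303 to 699.5 CPM in the niche sort of normal marrow (log2 fold change -1.78, edgeR adjusted p = 3.81e-04). With metastasis no marker of the list was called, 8 of 11 had a positive log2 fold change in general and 7 of 11 in niche macrophages, and the medians were 0.39 and 0.47. The higher sums in metastatic marrow were mostly Chil3, which encodes a secreted chitinase-like protein, with means of 7479 CPM in normal and 12267 CPM in metastatic marrow in general macrophages, and of 4153 and 8525 CPM in niche macrophages. Whether a different share of monocytes in the 2 sorts accounts for the level of Ccr2 was not tested. The deposited values of Ccr2 were not whole numbers in any of the 12 libraries, whereas those of Ccr3 and Ccr1 were whole in all 12. How values that are not whole arose is not given in the sources used here and was not tested, and reads shared with other genes would make the level of Ccr2 uncertain. The genes most like Ccr2 in pattern were Ahnak (r = 0.96), Actb (r = 0.95) and Tmsb4x (r = 0.94) over the 12 libraries.

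Ccr1, a receptor for Ccl3, Ccl6 and Ccl9 on monocytes, macrophages and neutrophils, was lower on average in niche macrophages without passing the test. It was at 135, 251 and 285 CPM in general macrophages from normal marrow and at 161, 232 and 269 CPM in those from metastatic marrow. The niche libraries held 149, 45.5 and 134 CPM in normal and 166.5, 62.4 and 96.25 CPM in metastatic marrow. The groups overlapped in both marrow states. Log2 fold changes between populations were -1.03 ± 0.45 and -1.02 ± 0.45 (SE; edgeR adjusted p = 0.241 and 0.547). With metastasis they were -0.02 and -0.01, with 95% intervals of -0.96 to 0.91 in general and -0.95 to 0.92 in niche macrophages, so changes of up to about 1 on the log2 scale in either direction lay within the intervals. Crybg3 (r = 0.92), Rab5b (r = 0.91) and Lilra6 (r = 0.91) had the most alike patterns.

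Cxcr2, the receptor of neutrophils for Cxcl1, Cxcl2 and related chemokines, was lower in niche than in general macrophages of metastatic marrow, and its group means were ordered the same way in normal marrow. General macrophages held 389, 429.9 and 419.5 CPM in normal and 194, 285 and 226 CPM in metastatic marrow. Niche macrophages held 196, 216 and 246 CPM in normal and 80.6, 127 and 92.2 CPM in metastatic marrow. In each of the 4 comparisons the 2 groups did not overlap, and the order of the means was general normal (413 ± 21.4 CPM), general metastatic (235 ± 46.1 CPM), niche normal (219 ± 25.1 CPM) and niche metastatic (99.8 ± 23.9 CPM; SD, n = 3 each), the 2 middle groups lying within each other's spread. Between populations the difference passed the test in metastatic marrow (log2 fold change -1.23 ± 0.28 SE; edgeR adjusted p = 0.0361), and in normal marrow the log2 fold change of -0.91 ± 0.27 did not (SE; edgeR adjusted p = 0.0956). The call in metastatic marrow was lost in 8 of the 12 fits that left out 1 library, with adjusted p-values from 0.0295 to 0.299 over the 12. It was kept only without niche normal library A, B or C or niche metastatic replicate 2. It was also lost with library size as the only scaling (log2 fold change -0.99, adjusted p = 0.148), without the low-count filter (adjusted p = 0.0561), with limma-voom (adjusted p = 0.0582) and with the 6 libraries of metastatic marrow alone (adjusted p = 0.0816). DESeq2 and edgeR with relative log expression scaling kept it. The deposited values of Cxcr2 were whole numbers in 3 of 12 libraries.

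With metastasis Cxcr2 had log2 fold changes of -0.81 ± 0.27 in general and -1.14 ± 0.28 in niche macrophages (SE; edgeR adjusted p = 0.944 and 0.190), neither of which passed. Limma-voom called it in general macrophages (log2 fold change -0.89, adjusted p = 0.0410), and DESeq2 called both (adjusted p = 0.0290 and 2.12e-04; over all alternatives the values ran from 0.0290 to 1 and from 2.12e-04 to 0.536). The difference between the 2 effects was -0.32 ± 0.39 (SE; 95% interval -1.13 to 0.48). Of the 12 neutrophil markers, 7 were called lower in niche macrophages from normal marrow and 5 in those from metastatic marrow, none higher, with median log2 fold changes of -1.18 and -0.86. With metastasis none was called, and their medians were -0.22 in general and -0.10 in niche macrophages. The list was mixed, with positive log2 fold changes for 4 of the 12 in general and 6 of the 12 in niche macrophages. Ly6g, the neutrophil surface antigen, had values of -0.69 and -0.86 (edgeR adjusted p = 0.944 and 0.381), and the granule protein genes Camp and Ngp had -0.29 and -0.13 in general and 0.39 and 0.21 in niche macrophages. The part of neutrophil content in the level of Cxcr2 was not tested. Mbp (r = 0.95), Thbs1 (r = 0.93) and Cers6 (r = 0.90) had the patterns most like that of Cxcr2.

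**Figure D3:**
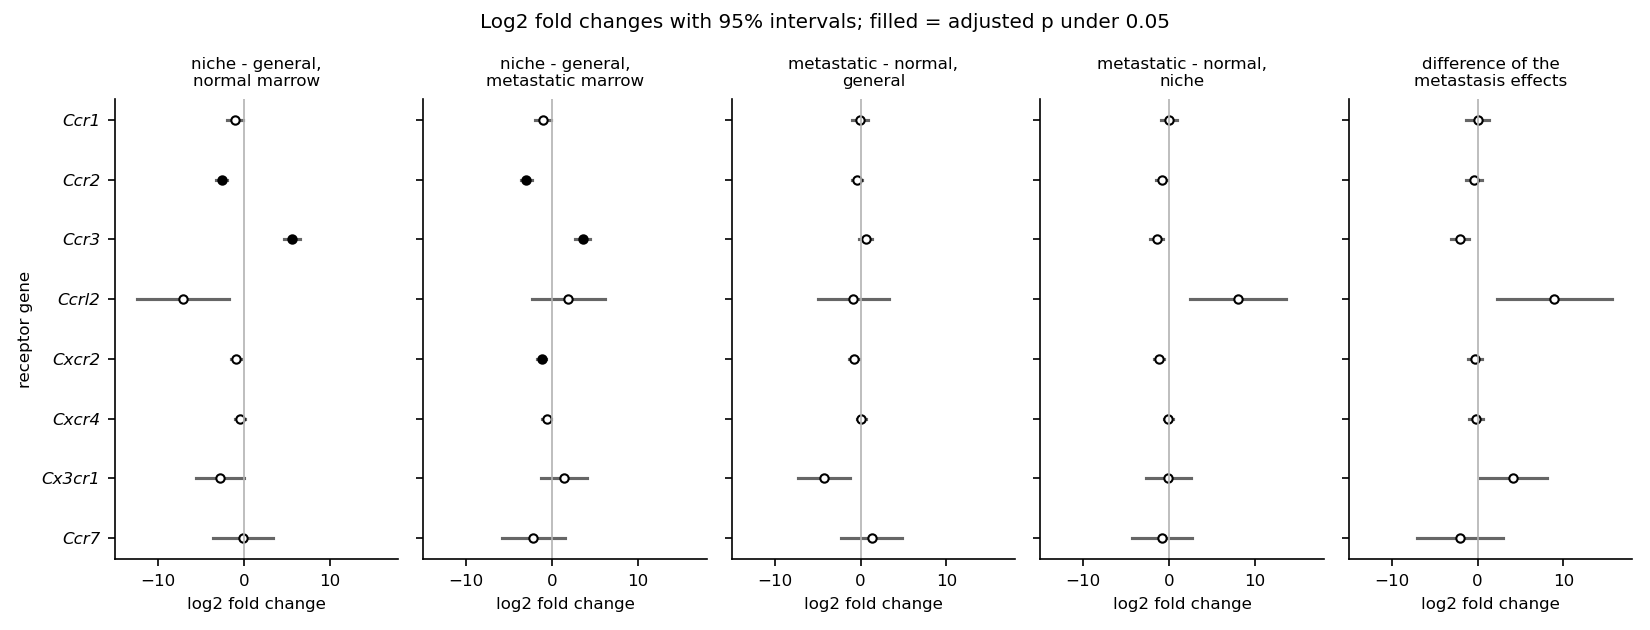
Log2 fold changes of the 8 tested receptors (horizontal axes) in the 5 comparisons, with 95% intervals from edgeR; filled points passed an adjusted p-value under 0.05. Filled points are Ccr2 and Ccr3 between populations in both marrow states and Cxcr2 in metastatic marrow, and the widest intervals are those of Ccrl2.

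Cxcr4, the Cxcl12 receptor, was abundant in every library and did not pass the test in any comparison. It was at 592, 884 and 592 CPM in general macrophages from normal marrow and at 839, 783 and 595.5 CPM in those from metastatic marrow. Niche macrophages held 344, 554 and 610.0 CPM in normal and 379.5, 576 and 465 CPM in metastatic marrow. The populations overlapped in normal marrow and did not in metastatic marrow. The log2 fold changes between populations were -0.46 ± 0.27 (95% interval -1.01 to 0.10) and -0.64 ± 0.27 (95% interval -1.20 to -0.08), neither passing (SE; edgeR adjusted p = 0.354 and 0.523). With metastasis the log2 fold change was 0.10 in general and -0.09 in niche macrophages, with 95% intervals of -0.46 to 0.66 and -0.64 to 0.47. The genes most like Cxcr4 were Itga1 (r = 0.91), Bnip3 (r = 0.86) and Actg1 (r = 0.85).

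Ackr3, the second receptor for Cxcl12, which removes the ligand rather than signalling through G proteins, was at the limit of detection. Its counts ran from 0 to 5 over the 12 libraries and did not pass the low-count filter, so it was not tested and no fold change is given. Of the 12 libraries, 3 exceeded the floor of 3 counts, with 4 counts in general metastatic replicate 2 and 5 counts each in niche normal library B and niche metastatic replicate 1. A difference between groups was not detectable at this depth.

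Cx3cr1, the receptor for the membrane-bound chemokine Cx3cl1 on non-classical monocytes and resident macrophages, was highest in general macrophages from normal marrow. There it was at 140.2, 118.5 and 127 CPM, while general macrophages from metastatic marrow held 9.49, 0.136 and 10.3 CPM. Niche macrophages held 35.1, 19.4 and 1.05 CPM in normal and 19.8, 0.5245 and 32.0 CPM in metastatic marrow. The deposited values were whole in 6 of the 12 libraries and in none of the 3 general libraries from normal marrow. These 3 libraries lay above all the other 9 libraries, which overlapped each other across groups. With metastasis the log2 fold change in general macrophages was -4.28 ± 1.43 (SE; 95% interval -7.26 to -1.29), which did not pass when adjusted over the whole table (edgeR adjusted p = 0.944). DESeq2 called it (adjusted p = 0.0445), and over all alternatives its adjusted p-value ran from 0.0445 to 1. In niche macrophages the log2 fold change was -0.09 ± 1.25 (SE), and the difference between the effects was 4.19 ± 1.84 (SE; edgeR adjusted p = 0.619).

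Between populations Cx3cr1 had log2 fold changes of -2.80 ± 1.34 in normal and 1.39 ± 1.27 in metastatic marrow (SE; edgeR adjusted p = 0.263 and 1). When 1 library was left out they ran from -3.64 to -2.24 and from 0.61 to 1.96, and the difference between the metastasis effects from 3.41 to 5.03. One library in each of 3 groups was far below its fellows, with 3 counts in general metastatic replicate 2, 21 in niche normal library C and 12 in niche metastatic replicate 2, against at least 260 counts in the other 9. Ace, a transcript of non-classical monocytes, overlapped between the 2 marrow states in general macrophages, at 12.04 to 42.8 CPM in normal and 12.04 to 31.5 CPM in metastatic marrow. An antisense gene, Gm33858, overlaps 78 bases of the exons of Cx3cr1, and strandedness is not given in the sources used here, so a share of its reads cannot be told apart. Btbd9 (r = 0.92), Daglb (r = 0.88) and Themis2 (r = 0.86) had the most alike patterns.

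Ccrl2, the atypical receptor that presents the chemoattractant chemerin on activated myeloid and endothelial cells, was at 385 counts or more in all niche libraries from metastatic marrow and at 2 counts or fewer in all those from normal marrow. In niche macrophages it had 1, 2 and 2 counts in normal marrow and 826, 562 and 385 counts in metastatic marrow, or 41.7, 24.6 and 14.2 CPM in the latter. In general macrophages it had 0, 574 and 101 counts in normal and 314, 1 and 274 counts in metastatic marrow. The niche groups did not overlap, and the general groups each held 1 library at 1 count or less beside libraries at 101 counts or more. The summed counts of the niche groups, 1773 against 5, gave a ratio of 266 after scaling, with a 95% counting interval of 114 to 821, which covers counting error only. The fitted log2 fold change was 8.07 ± 2.68 (SE; 95% interval 2.46 to 13.67) and did not pass when adjusted over the whole table (edgeR adjusted p = 0.381), whereas DESeq2 gave an adjusted p-value of 2.52e-04 (2.52e-04 to 0.557 over the alternatives). Libraries of a group varied widely, with correlations of log2 CPM of only 0.61 to 0.62 among the niche normal libraries. These libraries also held fewer genes at 10 counts or more (7684 to 9001) than the niche libraries from metastatic marrow (9582 to 11600).

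In normal marrow the general libraries held 675 counts of Ccrl2 against 5 in the niche libraries, a ratio of 137 with a 95% counting interval of 58.6 to 425 (edgeR adjusted p = 0.190, DESeq2 adjusted p = 0.00114; 0.00114 to 0.648 over the alternatives). Of these 675 counts, 574 came from general normal replicate 2, and without it the fitted log2 fold change moved from -7.03 to -4.66. The deposited values of Ccrl2 were whole in 10 of the 12 libraries, but not in this replicate or in niche metastatic replicate 1, its 2 highest. In metastatic marrow the log2 fold change was 1.90 ± 2.02 in the other direction (SE; edgeR adjusted p = 1), and with metastasis in general macrophages it was -0.86 ± 1.97 (SE). The difference between the metastasis effects was 8.93 ± 3.21 on the log2 scale (SE; edgeR adjusted p = 0.500, DESeq2 adjusted p = 0.00877; 0.00877 to 0.788 over the alternatives). It ran from 6.56 to 9.50 when 1 library was left out. The genes most like Ccrl2 were Oaz2 (r = 0.97), Ubl7 (r = 0.90) and Rnf113a2 (r = 0.84).

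Ccr7, which guides dendritic cells and lymphocytes to lymph nodes, was close to the floor. It had 10, 8 and 7 counts in general macrophages from normal marrow, 77, 14 and 7 in those from metastatic marrow, 5, 12 and 8 in niche macrophages from normal marrow and 5, 9 and 4 in those from metastatic marrow. Apart from the library with 77 counts, all values were at or under 14 counts. No comparison passed, the 95% interval of the metastasis effect reaching from -2.28 to 4.85 in general and from -4.34 to 2.72 in niche macrophages on the log2 scale.

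Levels were compared between receptors only after division by the combined length of all annotated exons of each gene, as CPM per kilobase (kb) of exon. This length was 6.760 kb for Ccr2 and 1.808 kb for Cxcr4, and which transcripts were expressed was not tested. Before division Ccr2 was above Cxcr4 in general macrophages (means of 1572 and 689 CPM in normal, 1166 and 739 CPM in metastatic marrow). Their order there thus rests on the length used. By group mean Cxcr4 ranked first in all 4 groups, at 381 ± 93.3 and 409 ± 70.5 CPM per kb in general macrophages from normal and metastatic marrow and 278 ± 77.5 and 262 ± 54.6 CPM per kb in niche macrophages (SD, n = 3 each). The second place was held by Ccr2 in general macrophages, at 233 ± 18.7 and 172.5 ± 61.6 CPM per kb. In niche macrophages it was held by Ccr3, at 168.5 ± 47.2 and 61.4 ± 31.5 CPM per kb (SD, n = 3 each). Ccr3 ranked 7 of 9 in general macrophages from normal marrow, at 3.51 ± 0.866 CPM per kb, and 5 of 9 in those from metastatic marrow, at 5.29 ± 0.748 CPM per kb (SD, n = 3 each). Ccr2 ranked 4 and 5 of 9 in niche macrophages, where its range overlapped that of Ccr1 in both marrow states and that of Cxcr2 in metastatic marrow. In niche macrophages from normal marrow the ranges of Cxcr4 (190.3 to 337 CPM per kb) and Ccr3 (116 to 206 CPM per kb) overlapped. In those from metastatic marrow the ranges of Ccr3 (36.0 to 96.6), Ccr1 (22.0 to 58.8) and Cxcr2 (26.5 to 41.5 CPM per kb) overlapped, so their order is not settled by 3 libraries. Ackr3 and Ccr7 stayed at or under 1.42 CPM per kb in every library.

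**Figure D4:**
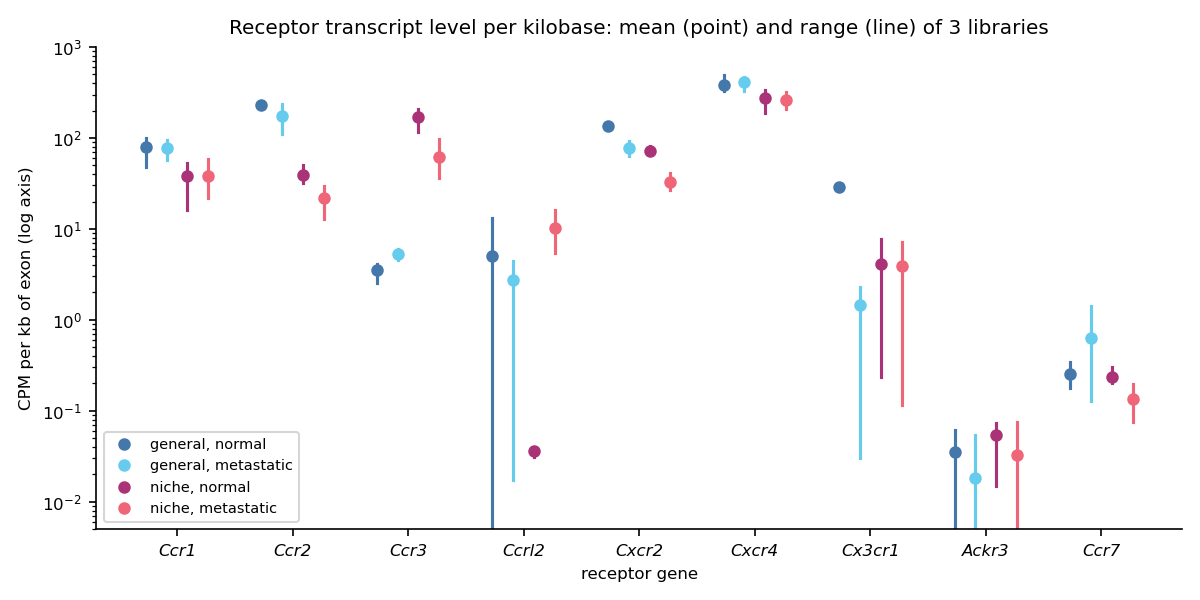
Level per kb of exon (log axis) of the 9 receptors in the 4 groups; points are means and lines the range of 3 libraries, cut off at the foot of the axis where a library was at 0. Cxcr4 had the highest mean in every group, and Ccr2 ranked above Ccr3 in general and below it in niche macrophages.

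No chemokine receptor outside the 9 passed edgeR's test. Of 16 others listed, 12 were in the table and 6 were tested, with 0 called by edgeR in any comparison. Ccr9 and Ccr1l1 had means over the 12 libraries of 8.67 and 7.01 CPM. Ccr1l1, which lies between Ccr1 and Ccr3, was at or under 0.0687 CPM in every general library and reached 45.6 CPM in niche libraries, but 1 niche library from normal marrow was at 0. Its transcript aligned with that of Ccr1 over 1036 bases with 77.5% identity.

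Ligands of the 9 receptors were also measured. Of 24 listed, 13 were in the table and 10 were tested, and 1 was called, lower, in niche macrophages from normal marrow. This was Ccl6, a ligand of Ccr1, at 311 ± 134.5 CPM in the general sort against 82.3 ± 26.5 CPM in the niche sort of normal marrow (SD, n = 3 each; log2 fold change -1.92, edgeR adjusted p = 0.00984). Its call was kept in 16 of 18 alternatives and lost with limma-voom and without general normal replicate 2 (log2 fold change -1.54, edgeR adjusted p = 0.127). Ccl6, Ccl9 and Ccl3 were the most abundant, with means over the 12 libraries of 143, 81.7 and 18.9 CPM. Cxcl12, the shared ligand of Cxcr4 and Ackr3, was at 8.20 to 48.3 CPM in niche macrophages from normal marrow and at or under 11.1 CPM in each library of the other groups. The eotaxin genes Ccl11 and Ccl24, whose products bind CCR3, were among the 24 listed but were not in the count table.

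Of 25 listed genes of receptor signalling and desensitisation, 24 were tested. Rgs1, which shortens G protein signals from chemokine receptors, was at 25.7 to 48.9 CPM in the general sort against 91.0 to 460.4 CPM in the niche sort of normal marrow. It was at 28.7 to 40.9 and 143 to 317.5 CPM in metastatic marrow, and it passed in both (log2 fold changes 2.53 and 2.76; edgeR adjusted p = 0.0151 and 0.0157). In normal marrow 1 niche library was far above the other two, and without niche normal library A the log2 fold change was 1.37 and did not pass (edgeR adjusted p = 0.136). Over all alternatives, which were added after the data were seen, Rgs1 was called in 13 of 18 in normal and 14 of 19 in metastatic marrow (adjusted p from 3.58e-04 to 0.303 and from 2.17e-04 to 0.103). Gnai2, the inhibitory G protein subunit that these receptors use in leukocytes, was at 553 ± 52.5 CPM in the general sort against 292 ± 38.2 CPM in the niche sort of normal marrow (SD, n = 3 each; log2 fold change -0.92, edgeR adjusted p = 0.0347), a call kept in 5 of 18 alternatives (adjusted p from 2.93e-06 to 0.164). In metastatic marrow its log2 fold change of -0.65 did not pass (edgeR adjusted p = 0.395). The other 22 tested genes of the list were not called in any comparison, among them Rac1 and Rac2, small GTPases of cell migration with means of 372 and 340.5 CPM over the 12 libraries.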

How the data were processed

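RNA of sorted marrow macrophages was sequenced in 12 libraries, 3 in each of 4 groups. The values are estimated counts per gene as the authors deposited them, of which 75.16% were whole within a tolerance of 1e-06. Per the submitters' processing notes, STAR 2.7.3a, Partek, DESeq2 1.40.2, R 4.3.1 and mm10 were used, with roles not given; strandedness is not given in the sources used here. Columns of the niche normal group are numbered 1 to 3 and the sample titles 4 to 6, so these libraries are called A, B and C. Libraries of the same group are from different mice. Libraries of different groups were treated as independent, and p-values set a difference against the spread between libraries.

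Expected counts were rounded and tested in R 4.3.3 with edgeR 4.0.16 (filterByExpr with a minimum count of 10, TMM scaling, quasi-likelihood F-test on 4 group means over 12 libraries, Benjamini-Hochberg adjustment over 12882 genes). Each comparison called genes at an adjusted p-value under 0.05. Counts per 1000000 (CPM) were computed from unrounded values and TMM-scaled totals. Totals of 13687957 to 30332442 counts limit precision for genes near 3 counts, and counting intervals (95%) cover counting error only. Fits were checked on simulated data. Alternatives were relative log expression (RLE) scaling, library size only, no filter, DESeq2 1.42.0, limma 3.58.1 (voom with quality weights), the 6 libraries compared, a replicate block and leaving out each library. Exon lengths (all annotated exons of a gene combined) and transcripts were from GENCODE M21, and promoters from RefSeq.

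The receptors, gene lists and markers were chosen with earlier results of these data known. All 9 receptors are named; of the other family lists, genes called in any comparison and the 3 with the highest mean CPM, except 1 that is not reported here; and for each receptor the 3 genes of highest Pearson r over 12 libraries among those with a mean of at least 10 CPM. Single marker genes and Cxcl12 were chosen after their values were seen.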

Additional observations from a re-analysis of the deposited data

How the results depend on the processing

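Of 723 values of single receptors under the alternatives, 662 kept direction and side of the threshold, 15 lost the threshold, 10 passed it newly and 36 changed sign. Ccr3 was called between populations in all 18 alternatives in normal and all 19 in metastatic marrow, and Ccr2 in 17 of 18 and 18 of 19, limma-voom being the exception. DESeq2 called 4 receptors and 2167 genes between populations in normal marrow and 628 genes in metastatic marrow. With metastasis it called 2 receptors and 205 genes in general and 3 receptors and 1326 genes in niche macrophages, and 2 receptors and 562 genes for the difference between these effects. Limma-voom called 1 receptor and 186 genes, 1 and 178, 1 (Cxcr2) and 23, and 0 and 11 in the 4 comparisons in the same order. With only the 6 libraries compared, 163 genes were called between populations in normal marrow and 0 with metastasis in niche macrophages; RLE scaling also gave 0 there. Library size only gave 0 genes with metastasis in either population, and no filter gave 5 in general and 3 in niche macrophages. The cause of these differences was not tested.

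Some log2 fold changes that had not passed the test changed sign. With metastasis in general macrophages, Ccr1 was 0.02 with library size only and 0.03 with the replicate block, and Ccrl2 was 0.30 with limma-voom and 0.97 with the block. With metastasis in niche macrophages, library size only gave 0.24 for Ccr1, 0.15 for Cxcr4 and 0.25 for Cx3cr1, the 6 libraries alone gave 0.12, 0.07 and 0.06, and limma-voom gave 0.13 for Ccr1. The difference between effects for Cxcr4 was 0.04 with library size only. That scaling moved the median log2 fold change of all genes from 0.04 to 0.29 between populations in metastatic marrow, from -0.17 to 0.06 with metastasis in niche macrophages and from -0.13 to 0.10 for the difference.

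Leaving out 1 library at a time gave 2 receptors between populations in normal marrow, 2 to 3 in metastatic marrow and 0 elsewhere, and 176 to 402, 66 to 121, 0 to 4, 0 to 66 and 0 to 16 genes in the 5 comparisons. The 66 and 16 genes were called without niche normal library B, and 26 genes with metastasis in niche macrophages without library C. Signs changed for Ccr7 between populations in normal marrow (-0.31 to 0.19). With metastasis in general macrophages they changed for Ccr1 (-0.28 to 0.20), Ccrl2 (-1.44 to 1.50) and Ccr7 (-0.18 to 1.75). In niche macrophages they changed for Ccr1 (-0.47 to 0.26), Cxcr4 (-0.31 to 0.07) and Cx3cr1 (-0.87 to 0.76), and for the difference between effects for Ccr1 (-0.45 to 0.28). Same-numbered libraries did not deviate together from their group means (correlations -0.01 to 0.03), the niche normal libraries being left out of this check. Even libraries of 1 group correlated only at 0.61 to 0.77 in log2 CPM, so whether the numbers mark shared mice cannot be told from this. The replicate block called 2 receptors and 119 genes between populations in metastatic marrow, with Cxcr2 at an adjusted p-value of 0.0664 by edgeR, and 0 receptors and 3 genes with metastasis in general macrophages.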
